A study of Mus musculus with 56 samples.

Results

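The fibrous sheath and the outer dense fibres are the cytoskeletal layers around the axoneme of the sperm tail. 10 genes tied to these structures were followed among the 53379 genes of the count table. Akap3, Akap4, Fsip2 and Ropn1 belong to the fibrous sheath, Odf1, Odf2, Odf3 and Odf4 are named for the outer dense fibres, and Tcp11 and Oaz3 are spermatid genes with products in or near the tail. They were chosen by name, their Ensembl identifiers were matched to symbols, and all 10 were found. The study asked how 7 regions of the male mouse reproductive tract differ and how they change with age. Bulk total RNA was sequenced from the testis, from the efferent ductules, from 4 parts of the epididymis (its initial segment, then caput, then corpus, then cauda) and from the vas deferens, with 4 libraries per region at 3 months and 4 at 21 months, 56 in all. All libraries came from male C57BL/6 mice, with no treatment or altered allele at either age. The mice were bought from 2 suppliers, and which ages came from which is not given. Each region was dissected whole, and both sides of a mouse were pooled. No step to clear the lumen is described, so RNA of the duct wall and RNA of cells in the lumen cannot be told apart.

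In spermatids, a ribbed fibrous sheath forms around the principal piece of the tail, and the outer dense fibres form along the axoneme of the midpiece and principal piece. The sheath holds A-kinase anchoring proteins, which dock protein kinase A, together with enzymes of glycolysis, and the dense fibres are stiff, cysteine-rich cables. Their genes are transcribed in haploid germ cells, transcription stops as the nucleus condenses, and the spermatozoa that pass through the efferent ductules and epididymis carry RNA left from earlier stages. In a bulk library, fewer cells of a type and less RNA per cell cannot be told apart.

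Between 11125279 and 20561967 reads were counted on genes per library, with a median of 16384049. Levels are given in CPM, counts relative to the TMM-scaled size of the library, a sum, mean or library value of CPM is linear, and differences are on the log2 scale with their SE. A gene was called at a Benjamini-Hochberg adjusted p under 0.05 over all genes tested. Values of 4 libraries are given in the order of replicates 1 to 4, a number that only names a library, and comparisons between genes as CPM per kilobase of 1 transcript per gene (the longest of those that GENCODE M21 marks as principal). Of 7 markers chosen for the regions, each had its highest mean in its own region at both ages, although Lrp2 was only slightly higher in the efferent ductules than in the next region at 21 months (1669 against 1655 CPM). Gm42418, a gene model that overlaps a ribosomal RNA repeat, took 49.7% of caput 3 months replicate 2, against 6.54% to 9.49% in the other 3 of its group, and from 1.27% (efferent ductules, 3 months) to 36.0% (corpus 21 months replicate 3) of the other libraries. Efferent ductules 3 months replicate 3 stood apart for 7 of the 10 genes. Tests between adjacent regions, of age and of age effects were also run without it. Means, orders of level and shares of its group include it. Other libraries stood apart for 1 or 2 genes each. Genes of multiciliated cells, which line the efferent ductules, summed to 1450.1 to 1639 CPM there at 3 months against 129 to 184 CPM in the initial segment. The same list summed to 1618 to 1934 CPM in the testis at 3 months, so it is not particular to the efferent ductules.

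4 stretches of sequence are shown because they mark how these genes are built and read. Akap3 and Akap4, the anchoring proteins of the sheath, share a run of 20 bases before their transcription starts, given here in capitals within the 120 bases upstream of each annotated start (RefSeq promoter table, GRCm38.p6, both on the forward strand, chr6:126852978-126853097 and chrX:7067395-7067514).
Akap3: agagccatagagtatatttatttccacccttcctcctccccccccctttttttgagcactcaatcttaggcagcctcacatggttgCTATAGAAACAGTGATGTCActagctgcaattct
Akap4: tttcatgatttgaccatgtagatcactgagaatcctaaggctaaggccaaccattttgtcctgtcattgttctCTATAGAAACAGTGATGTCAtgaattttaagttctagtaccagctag
The run lies 34 bases before the start of Akap3 and 47 bases before that of Akap4. Among 32851 promoter windows it was found in 2, those of these 2 genes. It was chosen after the sequences were compared, and it is a description of letters, not of a site.

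Odf1 is shown for its cysteine codons, in capitals, in a stretch of 30 codons near the end of its coding sequence (codons 187 to 216, GRCm38 chr15:38226416-38226505, forward strand). Cysteine codons made up 10 of these 30 and 41 of all 248 codons (16.5%). Oaz3 is shown at the point where ribosomes change frame (GRCm38 chr3:94436002-94436064, printed on the reverse strand), with the stop codon of the first frame in capitals.
Odf1: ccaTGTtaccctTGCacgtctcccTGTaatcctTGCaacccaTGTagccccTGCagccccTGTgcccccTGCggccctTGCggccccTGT
Oaz3: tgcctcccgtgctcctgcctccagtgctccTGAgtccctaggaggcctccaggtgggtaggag
The annotated coding sequence of Oaz3 holds 729 bases and passes over 1 base of this TGA, after 86 codons of the first frame. Antizymes are known for this programmed frameshift, which lets translation continue past the stop codon.

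Promoter windows were found in the RefSeq table for 8 of the 10 genes, all but Odf1 and Oaz3. Searched on both strands, the cAMP response core TGACG was present in 4 of the 14 windows of these 8 genes (Fsip2, Odf2 and Tcp11), against 17.8% of all 32851 windows. The X-box core GTTGCC was present in 4 of the 14 (Odf3 and Tcp11), against 10.4% of all windows. Windows of 1 gene can overlap and hold the same match, as those of Odf2 and of Tcp11 do. Neither the full cAMP response site TGACGTCA, which contains that core, nor TATAAA was present in a window of these genes, against 1.55% and 12.4% of all windows.

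In the testis, all 10 genes were abundant at both ages. Per kilobase of the chosen transcript, Oaz3 was the highest at 3 months (2034 ± 194 CPM per kilobase, SD, n = 4). Odf1 (973 ± 58.9), Tcp11 (964 ± 46.6) and Odf2 (872 ± 135) followed with overlapping libraries, and the libraries of Odf2 also overlapped those of Akap4 (690.2 ± 28.6). Below them came Akap3 (336 ± 8.41), Ropn1 (239 ± 11.4) and Odf4 (178 ± 7.53), each apart from its neighbours. Odf3 (103 ± 14.98) and Fsip2 (92.7 ± 3.93) were the lowest and overlapped. At 21 months Oaz3 again led at 2208 ± 75.4 CPM per kilobase. The order of Odf1, Tcp11 and Odf2, whose libraries overlapped, was Tcp11, Odf2, Odf1, and Ropn1 (196 ± 12.9) now overlapped with Odf4 (178 ± 3.07). The order depends on the length used, at both ages and for the lead of Oaz3 too, since its chosen transcript has 732 bases and all its exons together 4326, and that of Odf2 has 2450 of 9919.

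The study asked for 4 times or more the level of the other 6 regions, and its text does not say whether their mean was used. Here a testis-specific gene had an adjusted p under 0.05 and a testis mean of 4 times or more the mean over the other 6 regions. Each of the 10 genes met this rule at 3 months and at 21 months (edgeR quasi-likelihood test, Benjamini-Hochberg adjusted p at most 9.31e-18 and 1.29e-20). Of all genes tested, 28.8% met it at 3 months and 27.6% at 21 months. At 3 months the testis mean was 330.2 times that of the other regions for Fsip2, 324 times for Ropn1, 301 times for Akap3 and 279 times for Odf3. It was 131 times for Odf4, 110.3 times for Akap4 and 55.3 times for Tcp11, and only 25.2 times for Oaz3, 22.6 times for Odf2 and 16.7 times for Odf1. The study picked Oaz3, Odf1, Tcp11 and Akap4 among its testis genes from these same libraries, so their place is not independent of it.

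**Figure D1:**
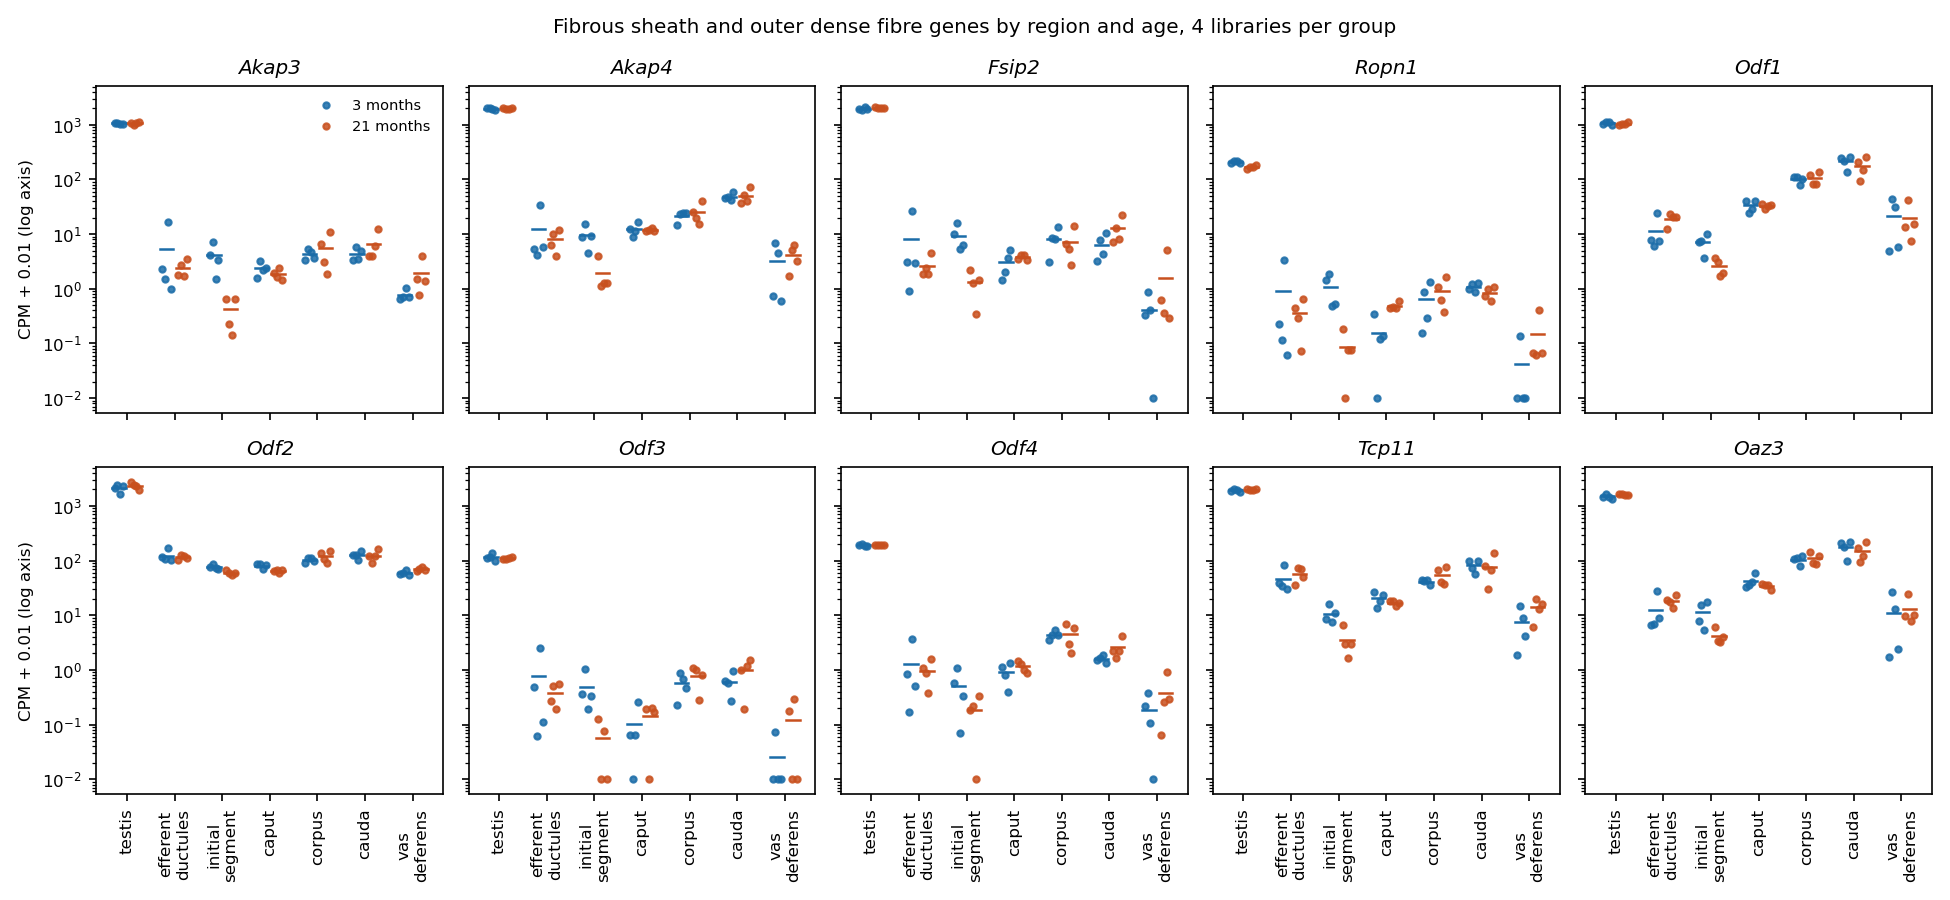
Level of each of the 10 genes (CPM + 0.01, log axis) in every library of the 7 regions at 3 and 21 months. Points are libraries and bars are means of 4. All 10 genes stand highest in the testis, and among the ducts Odf1 and Oaz3 are highest in the cauda epididymis, where their means at 3 months are 215 and 175 CPM.

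Akap4 (ENSMUSG00000050089, GRCm38 chrX:7067519-7078609, forward strand) encodes the most abundant protein of the fibrous sheath, and lies on the X chromosome. In the testis its libraries were 2057, 2016, 1902 and 1895 CPM at 3 months and 2002, 1972, 1955 and 2037 CPM at 21 months. The ages overlapped and differed by 0.016 ± 0.046 on the log2 scale (SE; adjusted p = 0.945, edgeR). Outside the testis it was highest in the cauda, with 45.4, 47.1, 41.4 and 59.6 CPM at 3 months, 2.46% of the testis mean, and 36.6, 51.1, 39.5 and 73.9 CPM at 21 months. In the corpus it stood at 21.5 ± 4.61 CPM and in the caput at 12.3 ± 3.32 CPM (mean ± SD, n = 4, 3 months). The vas deferens held 0.740, 6.94, 4.40 and 0.584 CPM at 3 months, the lowest of the 7 regions.

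Akap3 (ENSMUSG00000030344, chr6:126853098-126874308, forward strand) encodes the anchoring protein that binds AKAP4 in the sheath. Its testis libraries were 1079, 1081, 1029 and 1042 CPM at 3 months and 1075, 971, 1076 and 1109 CPM at 21 months, and they overlapped (-0.0015 ± 0.051 on the log2 scale, adjusted p = 0.992). It was scarce in every duct region. In the cauda it held 3.33, 5.78, 3.45 and 4.85 CPM at 3 months, 0.411% of the testis mean, and the test found no difference from the corpus or the efferent ductules, its neighbours in level. The efferent ductules were a neighbour only through replicate 3, at 16.6 CPM against 0.963 to 2.28 in the others, and this pair was not tested without that library. The vas deferens held 0.635, 0.688, 1.04 and 0.681 CPM.

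Fsip2 (ENSMUSG00000075249, chr2:82943634-83008937, forward strand) encodes a very large protein that interacts with the fibrous sheath. In the testis it stood at 1904, 1885, 2068 and 1977 CPM at 3 months and 2077, 2025, 2014 and 2057 CPM at 21 months, with overlap (0.060 ± 0.047 on the log2 scale, adjusted p = 0.714). Its cauda libraries held 3.14, 7.75, 4.24 and 10.3 CPM at 3 months, which is 0.325% of the testis mean and the smallest percentage of the 10 genes in that region. The regions were put in order of level at 3 months with every library included. Below the testis, the test found no difference between neighbours in this order, apart from the last step. That step was from the caput (3.04 ± 1.65 CPM) to the vas deferens (0.397 ± 0.362 CPM). The place of the efferent ductules next to the initial segment rests on replicate 3, at 26.2 CPM against 0.897 to 3.02 in the others. Without that library, Fsip2 was called higher in the initial segment than in the efferent ductules. It was then also called lower in the caput than in the initial segment.

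Ropn1 (ENSMUSG00000022832, chr16:34649921-34678618, forward strand) encodes ropporin, which binds A-kinase anchoring proteins through a domain like that of the regulatory subunits of protein kinase A. Its testis libraries were 203, 214, 221 and 199 CPM at 3 months and 157, 170.4, 172 and 185 CPM at 21 months. Every library at 21 months was below every library at 3 months, and Ropn1 fell by 0.29 on the log2 scale (SE 0.058, adjusted p = 0.0183, edgeR). It was the only one of the 10 genes called for age in the testis, where 0.21% of all genes were lower and 0.353% higher, and the call was lost without testis 21 months replicate 1, 2 or 3 or testis 3 months replicate 2 (adjusted p from 0.0707 to 0.105). Ropn1 did not pass in 1 fit of all 56 libraries either (adjusted p = 1.0), and its change is below the 1.5-fold that the study asked for. In the ducts Ropn1 was near the limit of these libraries, with 0.985, 1.21, 0.849 and 1.28 CPM in the cauda and 0, 0.125, 0 and 0 CPM in the vas deferens at 3 months.

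Odf1 (ENSMUSG00000061923, chr15:38219203-38226735, forward strand) encodes the major cysteine-rich protein of the outer dense fibres. The testis held 1033, 1128, 1134 and 1007 CPM at 3 months and 990.5, 1049, 1042 and 1108 CPM at 21 months, and the ages overlapped (-0.039 ± 0.053 on the log2 scale, adjusted p = 0.869). Along the epididymis of 3-month-old mice it stood at 6.999, 7.42, 3.67 and 10.1 CPM in the initial segment, at 40.2, 23.8, 28.5 and 40.8 CPM in the caput and at 112, 109, 78.8 and 100.4 CPM in the corpus. No library of one of these 3 regions overlapped with those of the next. The cauda held 247, 217, 137 and 257 CPM, 19.96% of the testis mean and the largest percentage of the 10 genes, and 212, 94.0, 148 and 253 CPM at 21 months, 16.9%. In the vas deferens replicates 2 and 3 stood apart from replicates 1 and 4, at 4.92, 44.0, 31.9 and 5.79 CPM in order.

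Odf2 (ENSMUSG00000026790, chr2:29889221-29931746, forward strand) encodes a dense fibre protein that is also a component of centriole appendages in ciliated and dividing cells. Its testis libraries were spread widely, at 2108, 2414, 1679.6 and 2343 CPM at 3 months and 2732, 2421, 2315 and 1970.0 CPM at 21 months, and the ages overlapped (0.14 ± 0.087 on the log2 scale, adjusted p = 0.608). In contrast with the other genes, Odf2 was never scarce. Its lowest mean in a duct region at 3 months was 59.2 ± 5.29 CPM in the vas deferens and its highest 126 ± 18.0 CPM in the cauda. The 12 centriole appendage genes summed to 307 to 326 CPM in the vas deferens and 384 to 396 CPM in the cauda at 3 months. A small nuclear RNA gene overlaps an exon of Odf2 on the opposite strand, and the strand setting of the counting is not stated.

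Odf3 (ENSMUSG00000025482, chr7:140847805-140851018, forward strand) and Odf4 (ENSMUSG00000032921, chr11:68921835-68927081, reverse strand) are named for the dense fibres. Odf3 stood at 112, 118, 138 and 96.9 CPM in the testis at 3 months and 106, 106, 112 and 114 CPM at 21 months, and Odf4 at 197, 201, 186 and 184 and 190.1, 189, 191 and 196 CPM. Neither passed the test for age (adjusted p = 0.750 and 0.986, edgeR). Odf3 was at most 2.46 CPM in any duct library at 3 months, and 3 of 4 vas deferens libraries had no read of it. Odf4 was the only gene of the set with its highest duct mean of 3 months in the corpus, 3.49, 4.39, 5.31 and 4.41 CPM, where no library overlapped with the cauda at 1.48, 1.65, 1.86 and 1.34 CPM.

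Tcp11 (ENSMUSG00000062859, chr17:28066745-28080639, reverse strand), a gene of the t-complex whose product is found in the sperm tail, had 1881, 2008, 1975 and 1804 CPM in the testis at 3 months and 2039, 1932, 1979.8 and 1999 CPM at 21 months (0.051 ± 0.047 on the log2 scale, adjusted p = 0.776). The groups overlapped. Outside the testis it was highest in the cauda, at 99.6, 74.4, 56.3 and 99.99 CPM at 3 months. The efferent ductules held 38.3, 33.6, 81.9 and 30.8 CPM and the initial segment next to them 8.499, 15.97, 7.58 and 10.8 CPM, without overlap. A gene with no name beyond its clone, AC132460.1, overlaps Tcp11 on the same strand.

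Oaz3 (ENSMUSG00000028141, chr3:94432414-94443915, reverse strand) encodes the antizyme of haploid germ cells, a relative of the proteins that hold down ornithine decarboxylase and so polyamine synthesis. Its testis libraries were 1485, 1672, 1474 and 1324 CPM at 3 months and 1659, 1666, 1553 and 1587 CPM at 21 months, overlapping, with a difference of 0.12 ± 0.057 on the log2 scale (adjusted p = 0.474). Along the duct at 3 months it stood at 32.6, 36.3, 40.4 and 59.95 CPM in the caput, 106, 109.5, 79.9 and 119 CPM in the corpus and 210.3, 174, 97.5 and 220.2 CPM in the cauda. The libraries of the caput and corpus did not overlap, and those of the corpus and cauda did. The cauda mean was 11.8% of that of the testis at 3 months and 9.27% at 21 months. Exons of Oaz3 overlap Tdrkh and Mrpl9 on the opposite strand.

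**Figure D2:**
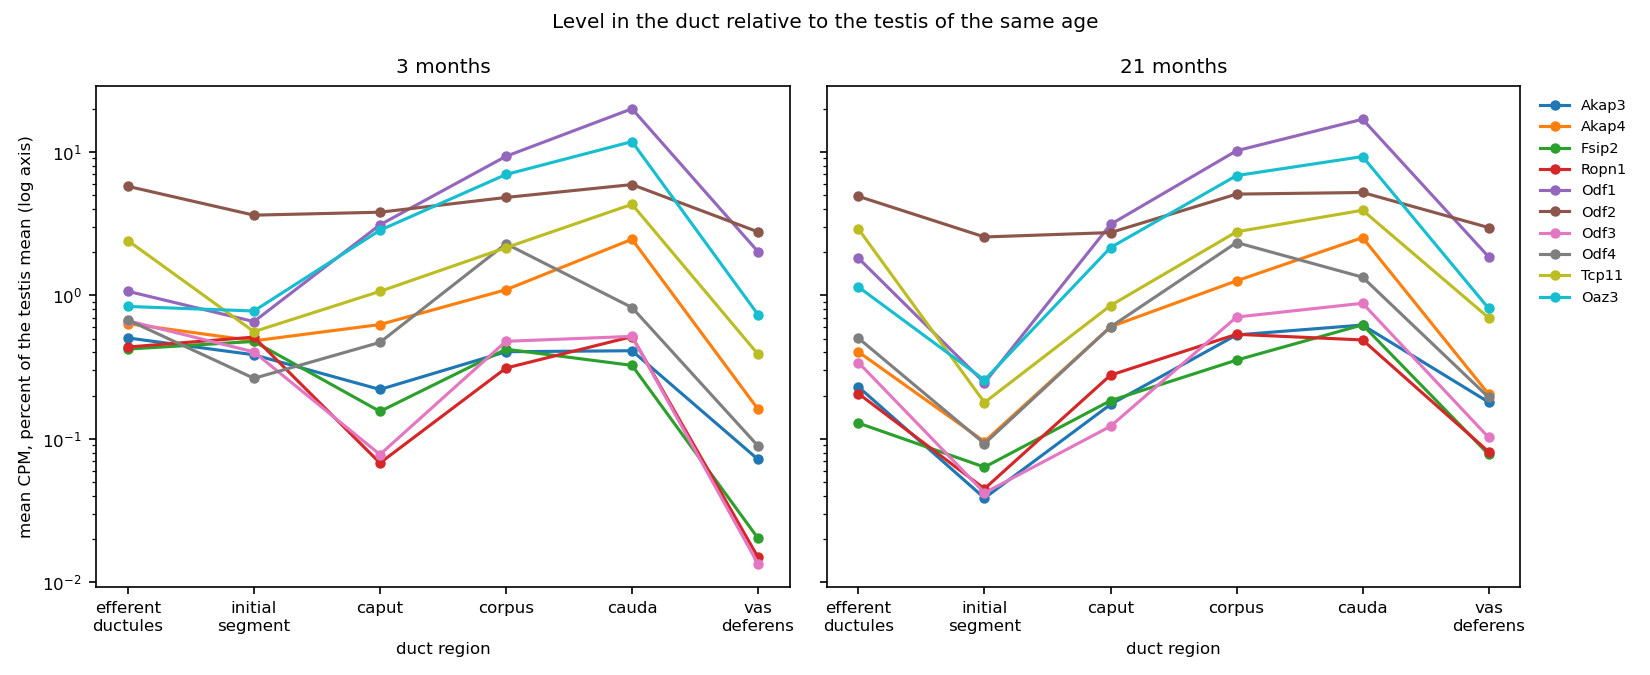
Mean level of each gene in the 6 duct regions as a percentage of its mean in the testis of the same age (log axis). At 3 months the cauda values run from 0.325% for Fsip2 to 19.96% for Odf1.

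Along the duct at 3 months, Tcp11 was called at every step. From the efferent ductules to the initial segment, Tcp11 fell by 2.12 and Odf2 by 0.69 on the log2 scale (adjusted p = 9.95e-06 and 0.000136, edgeR), 2 of 10 genes against 24.7% of all genes lower. No gene of the set was higher there, against 17.8% of all genes, and none was at an unadjusted p under 0.05 or by DESeq2. Without efferent ductules 3 months replicate 3, Akap3, Fsip2 and Ropn1 were higher in the initial segment by 1.31, 1.96 and 2.99 on the log2 scale (adjusted p = 0.00154, 0.000834 and 0.000230, edgeR). With that library the difference of Akap3 was -0.39 ± 0.50, so the order of the 2 regions for Akap3 depends on it.

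From the initial segment to the caput, Odf1 rose by 2.25, Oaz3 by 1.87 and Tcp11 by 0.94 on the log2 scale (adjusted p = 0.000452, 0.00560 and 0.0488), against 12.7% of all genes higher. Ropn1 fell by 2.63 in the same step (adjusted p = 0.0369), against 14.7% lower. Without efferent ductules 3 months replicate 3, Fsip2 and Odf3 were lower too. The call of Ropn1 was lost without the libraries numbered 1, 2 or 4 of all regions, and that of Tcp11 without those numbered 1 or 4. The libraries of Ropn1 were 1.43, 1.85, 0.481 and 0.516 CPM in the initial segment and 0.333, 0, 0.110 and 0.126 CPM in the caput, without overlap. The caput library with no read was replicate 2, the one rich in Gm42418. From the caput to the corpus, Odf4 rose by 2.28, Odf1 by 1.59, Oaz3 by 1.30 and Tcp11 by 1.0 (adjusted p from 0.000329 to 0.0389), 4 of 10 against 18.0% of all genes. None of the 10 fell, against 14.7%, none at an unadjusted p under 0.05 and none by DESeq2. The number that rose was 8 without efferent ductules 3 months replicate 3, a library outside the comparison that enters the shared spread, and 8 in a fit of these regions alone. The calls of Oaz3 and Tcp11 were each lost without 1 or more replicate numbers and with library size only. By DESeq2 Oaz3 did not pass (adjusted p = 0.0785), whereas Odf3 did (adjusted p = 0.0396).

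From the corpus to the cauda, the step into the region where spermatozoa are stored, Tcp11 rose by 1.0 on the log2 scale (adjusted p = 0.0285) and Odf4 fell by 1.47 (adjusted p = 0.0107). Of all genes 14.2% were higher and 9.24% lower. Akap4 and Odf1 differed by 1.17 ± 0.48 and 1.10 ± 0.43 and did not pass (adjusted p = 0.0762 and 0.0622). Both passed without efferent ductules 3 months replicate 3 (adjusted p = 0.0130 and 0.0466). The call of Tcp11 was lost without replicate 1 or 4, and that of Odf4 without replicate 4. From the cauda to the vas deferens, all 10 genes fell at 3 months, against 24.9% of all genes (adjusted p at most 0.00329). The fall was 1.09 for Odf2 and 4.05 for Fsip2 as the largest of the 8 genes with more than 3 reads in the vas deferens. Odf3 and Ropn1 had 1 and 2 reads there over the 4 libraries, so no size is given for them. Beside this fall the spermatid nucleus genes, such as those of the protamines, summed to 162 to 284 CPM in the cauda and 2.86, 41.9, 21.5 and 5.60 CPM in the vas deferens. Replicates 2 and 3 of the vas deferens were the high ones for this list as for Odf1, and the part of germ cell RNA in the result was not tested.

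At 21 months the first 3 steps held 9, 7 and 8 called genes, against 2, 4 and 4 at 3 months in both directions together, or 5, 6 and 8 without efferent ductules 3 months replicate 3. From the efferent ductules to the initial segment, 9 genes fell, all but Fsip2, from 0.84 for Odf2 to 3.90 for Tcp11 (against 23.5% of all genes lower). In the caput 7 genes were higher than in the initial segment (Akap3, Akap4, Odf1, Odf4, Tcp11, Ropn1 and Oaz3, by 2.03 to 3.57), against 14.9% of all genes. The corpus exceeded the caput for 8 (all but Fsip2 and Ropn1, by 0.86 to 2.42), against 16.9%. From the corpus to the cauda Akap4 rose by 0.92 and Odf4 fell by 0.90 (adjusted p = 0.0220 and 0.0424, edgeR), against 13.8% higher and 13.1% lower. The call of Akap4 was lost without replicate 2 or 3, and that of Odf4 without replicate 1, 2 or 4, by DESeq2, with library size only and in a fit of these regions alone. All 10 fell again into the vas deferens, by 0.71 for Odf2 to 3.51 for Akap4, against 18.5%. At none of these 3 steps and at the vas deferens did a gene move the other way, against 21.1% of all genes higher in the initial segment, 14.8% lower in the caput, 15.4% lower in the corpus and 16.6% higher in the vas deferens (11.4% at 3 months). The count in the other direction was also 0 at an unadjusted p under 0.05 and by DESeq2. The difference of a step between the ages was not tested.

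The initial segment was the one region where most of the genes fell with age. Of 10 genes, 7 were lower at 21 than at 3 months and none was higher, against 3.01% of all genes lower and 3.35% higher (edgeR, initial segment, adjusted p under 0.05). None was higher at an unadjusted p under 0.05 either, and DESeq2 called the same 7 genes lower as edgeR. The 4 fibrous sheath genes fell the most among those called. Akap3 libraries were 4.14, 7.30, 1.504 and 3.36 CPM at 3 months and 0.646, 0.212, 0.134 and 0.644 CPM at 21 months, a fall of 3.11 on the log2 scale (SE 0.49, adjusted p = 0.00201). Akap4 went from 8.93, 15.2, 4.57 and 9.23 CPM to 3.93, 1.13, 1.27 and 1.29 CPM (-2.14 ± 0.39, adjusted p = 0.00464). The ages did not overlap for either gene, although replicate 1 at 21 months held more Akap4 than the other 3 of its group.

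Fsip2 stood at 9.86, 15.8, 5.41 and 6.26 CPM at 3 months and 2.17, 1.27, 0.334 and 1.42 CPM at 21 months (-2.67 ± 0.40 on the log2 scale, adjusted p = 0.00139). Ropn1 libraries were 1.43, 1.85, 0.481 and 0.516 CPM and 0.176, 0, 0.0669 and 0.0644 CPM (-3.46 ± 0.69, adjusted p = 0.00816), with counts of 8 to 31 and 0 to 3 reads, so that its fitted size rests on few reads. Neither gene overlapped between the ages, and replicate 2 was the highest of the 3-month libraries for all 4 sheath genes. Without it the differences were -2.70, -1.86, -2.33 and -3.08 for Akap3, Akap4, Fsip2 and Ropn1, all still called (adjusted p from 0.00630 to 0.0332).

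Of the other genes, Tcp11 stood at 8.499, 15.97, 7.58 and 10.8 CPM at 3 months and 6.57, 2.96, 1.67 and 3.03 CPM at 21 months (-1.43 ± 0.31, adjusted p = 0.0140). Odf1 stood at 6.999, 7.42, 3.67 and 10.1 CPM and 3.58, 3.10, 1.67 and 1.93 CPM (-1.31 ± 0.30, adjusted p = 0.0183), and neither gene overlapped. Oaz3, at 7.86, 15.2, 5.47 and 17.8 and 6.16, 3.31, 3.21 and 3.93 CPM, overlapped between the ages (-1.33 ± 0.32, adjusted p = 0.0232). These 3 calls were lost without initial segment 3 months replicate 2 (adjusted p = 0.0623, 0.0521 and 0.0853) and without initial segment 21 months replicate 4. Odf2, at 77.9, 88.3, 72.1 and 71.0 and 66.2, 58.9, 55.6 and 60.2 CPM, did not overlap but did not pass (-0.22 ± 0.071, adjusted p = 0.0905). Odf3 (-2.95 ± 0.86, adjusted p = 0.0580) and Odf4 (-1.32 ± 0.78, adjusted p = 0.404) rested on few reads, with Odf3 at 0 in 2 of 4 libraries at 21 months. In all, 8 of 10 genes had every library at 21 months below every library at 3 months, against 14.6% of all genes tested.

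**Figure D3:**
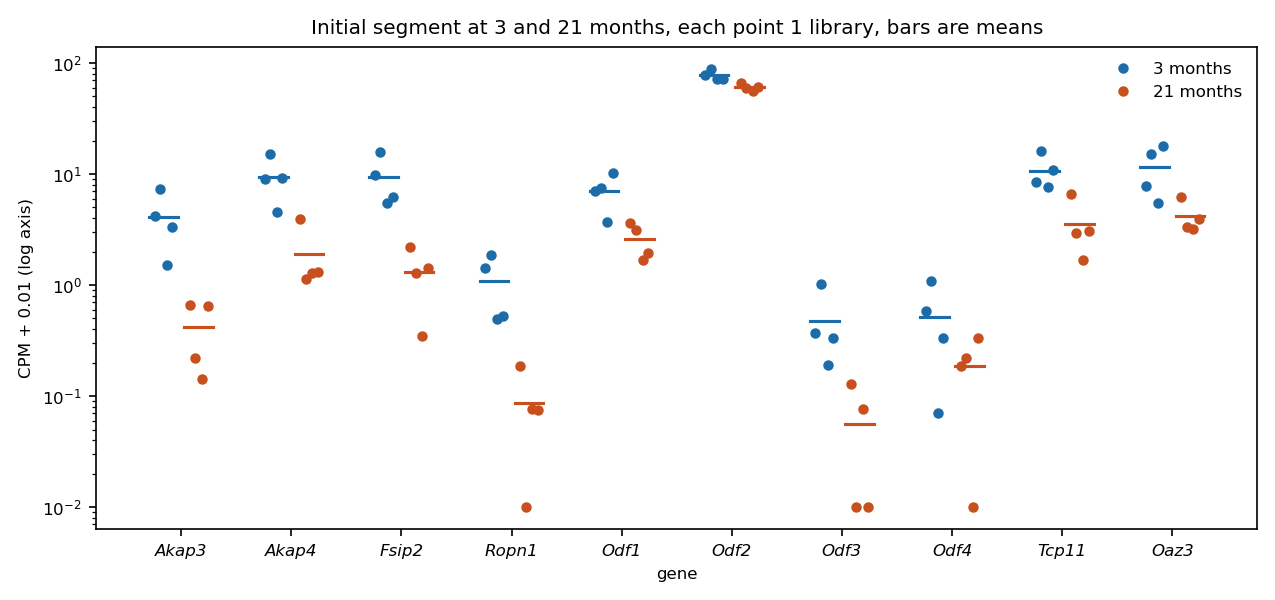
Level of each gene (CPM + 0.01, log axis) in the 4 initial segment libraries of each age. Points are libraries and bars are means. The ages are apart for 8 of the 10 genes, all but Odf4 and Oaz3.

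Other germ cell genes were lower in the same libraries, in counts to be read against the 3.01% of all genes that were lower and 3.35% higher. All 8 spermatid nucleus genes fell (the median over all genes tested was -0.011 on the log2 scale), such as the protamine Prm2 (-1.94) and the linker histone Hils1 (-3.41), and their sum went from 59.9, 94.0, 25.3 and 54.3 CPM to 17.8, 7.12, 6.22 and 9.73 CPM without overlap. Of 11 other fibrous sheath genes, 6 fell and none rose, among them Fscb, whose product binds calcium in the sheath (-2.86), and Ldhc, the sperm lactate dehydrogenase (-2.68). 4 of 13 spermatocyte genes tested fell, 3 of 10 of the flagellar membrane and midpiece (Catsper1 and Spem1 the most), and 1 each of the acrosome (Zpbp2, of 11), the dense fibre paralogs (Tekt5, of 10), the spermatogonium (Dmrtb1, of 5) and the Leydig cell (Hsd3b1, of 8). None of 6 Sertoli cell genes tested passed, nor any of the 12 centriole appendage, 5 antizyme and ornithine decarboxylase or 6 protein kinase A genes. Of the multiciliated cell genes Rsph9 was higher and Deup1 lower, of 13. At 21 months no read was counted in any of the 4 initial segment libraries for 1 of 8 spermatid nucleus (Prm3), 2 of 11 acrosome, 1 of 14 spermatocyte, 6 of 11 spermatogonium and 4 of 10 Sertoli cell genes. At 3 months these numbers were 0, 0, 0, 2 and 2 in the same order. The sum of the acrosome list was 10.9 to 20.2 CPM at 3 and 7.02 to 10.6 CPM at 21 months. The part of germ cell RNA in the fall of the tail genes was not tested.

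The fall in the initial segment was set against the mean age effect of the other 5 duct regions in 1 fit of all 56 libraries. It was larger there for Akap3 (-3.44 ± 0.76 on the log2 scale, adjusted p = 0.00698), Akap4 (-2.28 ± 0.57, 0.0199), Fsip2 (-3.12 ± 0.75, 0.0145), Ropn1 (-4.07 ± 1.03, 0.0199) and Tcp11 (-1.83 ± 0.45, 0.0168, edgeR). These were 5 of 10 genes against 1.65% of all genes lower and 0.571% higher. Without initial segment 3 months replicate 2, the differences ranged from -3.55 for Ropn1 to -1.47 for Tcp11, and none of the 5 passed (adjusted p from 0.0561 to 0.125). The number called moved by more than 1.5 times in 4 of the 6 fits that left out libraries, this one among them. Without efferent ductules 3 months replicate 3, all 5 passed, and so did Odf3 and Oaz3 in the initial segment, Odf1 (higher in the efferent ductules) and Akap3 (higher in the vas deferens). In no other region did a gene of the set pass this test, against 0.0514% of all genes higher and 0.0135% lower in the testis and 1.33% and 2.06% in the efferent ductules. The same percentages were 4.11% and 3.32% for the caput, 0.0865% and 0.0433% for the corpus, 0.806% and 1.78% for the cauda, and 7.03% and 1.28% for vas deferens libraries. At an unadjusted p under 0.05 the numbers there were 0 in the testis, 1 each in the caput and corpus, 2 each in the efferent ductules and cauda, and 4 in the vas deferens. The percentages above are for an adjusted p. Shares of all genes at an unadjusted p are not given here, so these numbers have no background to be read against.

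In the remaining 5 duct regions no gene of the set was called for age by edgeR. At an unadjusted p under 0.05, Odf1 was higher at 21 months in the efferent ductules (0.85 on the log2 scale), Odf2 lower (-0.39) and Ropn1 higher (1.49) in the caput, Tcp11 higher in the corpus (0.40), Fsip2 higher in the cauda (1.0), and Akap3 (1.23) and Odf2 (0.18) higher in the vas deferens. By DESeq2 the count was 1, Odf2 in the caput. Of all genes, 4.0% were higher and 2.98% lower in the efferent ductules at an adjusted p under 0.05 (edgeR). Gm42418 took 1.27% to 3.29% of the libraries there at 3 months and 4.93% to 22.2% at 21 months. No gene of the set was called there with Gm42418 left out of the counts. The caput had 3.09% higher and 5.05% lower, and the corpus 1.5% and 1.47%. These percentages were 0.07% and 0.0583% for cauda, and 11.4% and 8.47% for vas deferens libraries. Odf3 had too few reads in the vas deferens to be tested. Without caput 3 months replicate 1, Ropn1 was higher and Odf2 and Oaz3 were lower in the caput, without caput 3 months replicate 3 Odf2 was lower there, and without vas deferens 21 months replicate 2 Akap3 was higher in the vas deferens. Without efferent ductules 3 months replicate 3, Odf1 (1.44, adjusted p = 0.0191) and Oaz3 (1.33, adjusted p = 0.0298) were higher in the efferent ductules at 21 months.

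That library was the highest of its age and region for all 10 genes. Efferent ductules 3 months replicate 3 held 34.6 CPM of Akap4 against 4.17 to 5.83 in the other 3 libraries, 16.6 CPM of Akap3 against 0.963 to 2.28, and 26.2 CPM of Fsip2 against 0.897 to 3.02. Its spermatid nucleus, acrosome and spermatocyte genes summed to 116, 52.9 and 50.5 CPM, above 29.0, 20.001 and 20.3 CPM as the highest of the other 3 libraries. Leydig cell genes summed to 10.2 CPM in it, against 8.59 to 8.86 CPM in the others.

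**Figure D4:**
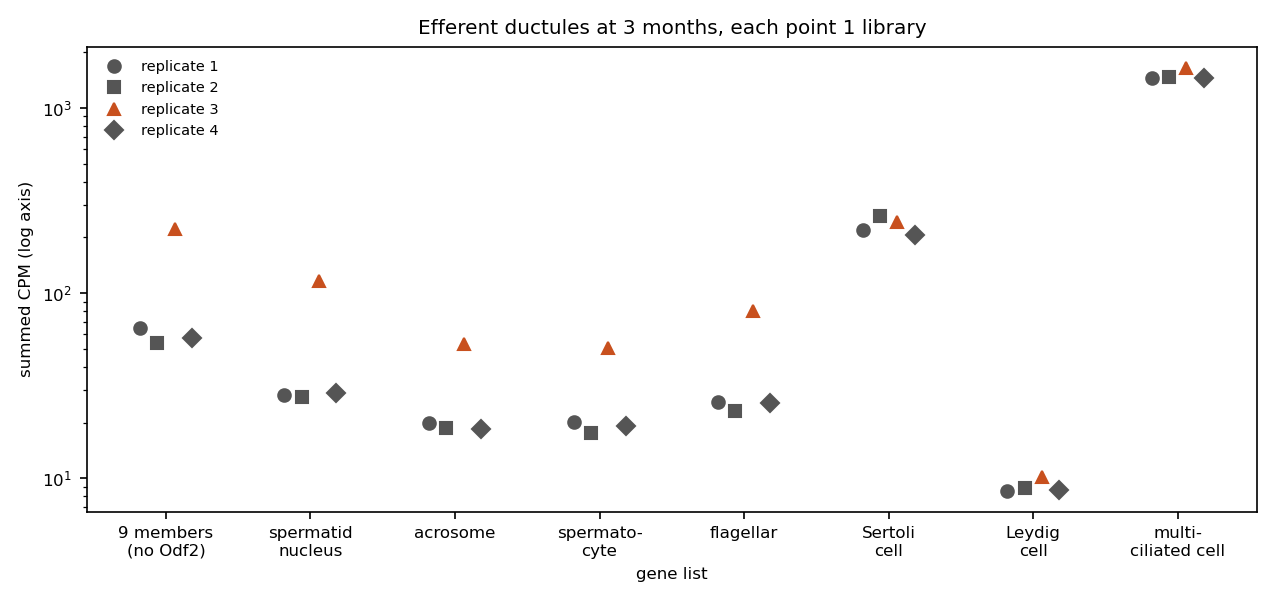
Summed CPM (log axis) of 9 of the genes (without Odf2) and of 7 gene lists in the 4 efferent ductules libraries at 3 months, each point 1 library. Replicate 3 is above the other 3 for the 9 genes, the spermatid nucleus, acrosome, spermatocyte and flagellar lists.

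To compare regions without scaling between libraries, each gene was taken as a share of the summed counts of the 10 genes in the same library. In the testis at 3 months the shares were 17.6% ± 2.43 for Odf2, 16.2% ± 0.557 for Akap4, 16.2% ± 1.16 for Fsip2, 15.8% ± 0.651 for Tcp11, 12.3% ± 0.821 for Oaz3, 8.87% ± 0.511 for Odf1 and 8.73% ± 0.191 for Akap3 (mean ± SD, n = 4). A share follows the length of a gene as well as its level, so shares are compared only within a gene. In the cauda at 3 months Odf1 made up 32.3% ± 1.26 and Oaz3 26.0% ± 2.94, both above every testis library, and Fsip2 made up 0.961% ± 0.385, Akap3 0.677% ± 0.191 and Akap4 7.50% ± 1.29, all below every testis library (exact permutation test, two-sided, adjusted p = 0.0306 for each, over 120 tests). With 4 against 4 libraries the smallest p before adjustment is 0.0286. Odf2 made up 19.5% ± 2.65 in the cauda, a difference that did not pass (exact permutation test, adjusted p = 0.432).

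The same pattern, Odf1 and Oaz3 above and Akap3, Akap4, Fsip2, Ropn1, Odf3, Odf4 and Tcp11 below their testis share, was found in the caput, corpus and cauda at both ages (exact permutation test, adjusted p = 0.0306 for each). In the caput at 3 months Odf1 made up 16.8% ± 2.64 and Fsip2 1.53% ± 0.717, and in the corpus 25.8% ± 3.08 and 2.12% ± 1.02. At 3 months Odf2 made up 59.4% ± 11.03 of the sum in efferent ductules libraries and 59.96% ± 8.56 in those of the initial segment, and 81.5% ± 5.52 in the initial segment at 21 months. Tcp11 made up 10.3% ± 2.29 in the caput at 3 months, against 15.8% in the testis. In the efferent ductules its share was larger than in the testis, 20.6% ± 0.944 at 3 months and 25.1% ± 5.02 at 21 months. Because Odf2 takes so much of the sum there, the direction of a share can depend on it. In the initial segment at 21 months Tcp11 made up 4.57% of the sum, below the testis, but 24.0% of the sum without Odf2, above the 19.5% of the testis (exact permutation test, adjusted p = 0.0347), and Odf1 and Oaz3 turned in the same way. Odf4 in the corpus was no longer called without Odf2 in the sum at either age (exact permutation test, adjusted p = 0.154 at 3 months and 0.0657 at 21 months), nor was Tcp11 in the caput at 3 months (adjusted p = 0.504). The other calls of this pattern in the caput, corpus and cauda held without it.

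Ratios of raw counts within a library need no sum. Reads of Odf1 per read of Akap3 at 3 months numbered 0.957 to 1.10 in the testis libraries and 1.02 to 3.02 in those of the initial segment. The caput had 7.42 to 25.9, the corpus 16.6 to 33.4 and the cauda 37.5 to 74.4. At 21 months the cauda had 20.4 to 52.8 and the testis 0.921 to 1.08. Per read of Odf1, by contrast, Oaz3 had 1.30 to 1.48 reads in the testis and 0.710 to 0.857 in the cauda at 3 months. These ratios are a description with no test. No library of the cauda overlapped with one of the testis for either ratio.

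**Figure D5:**
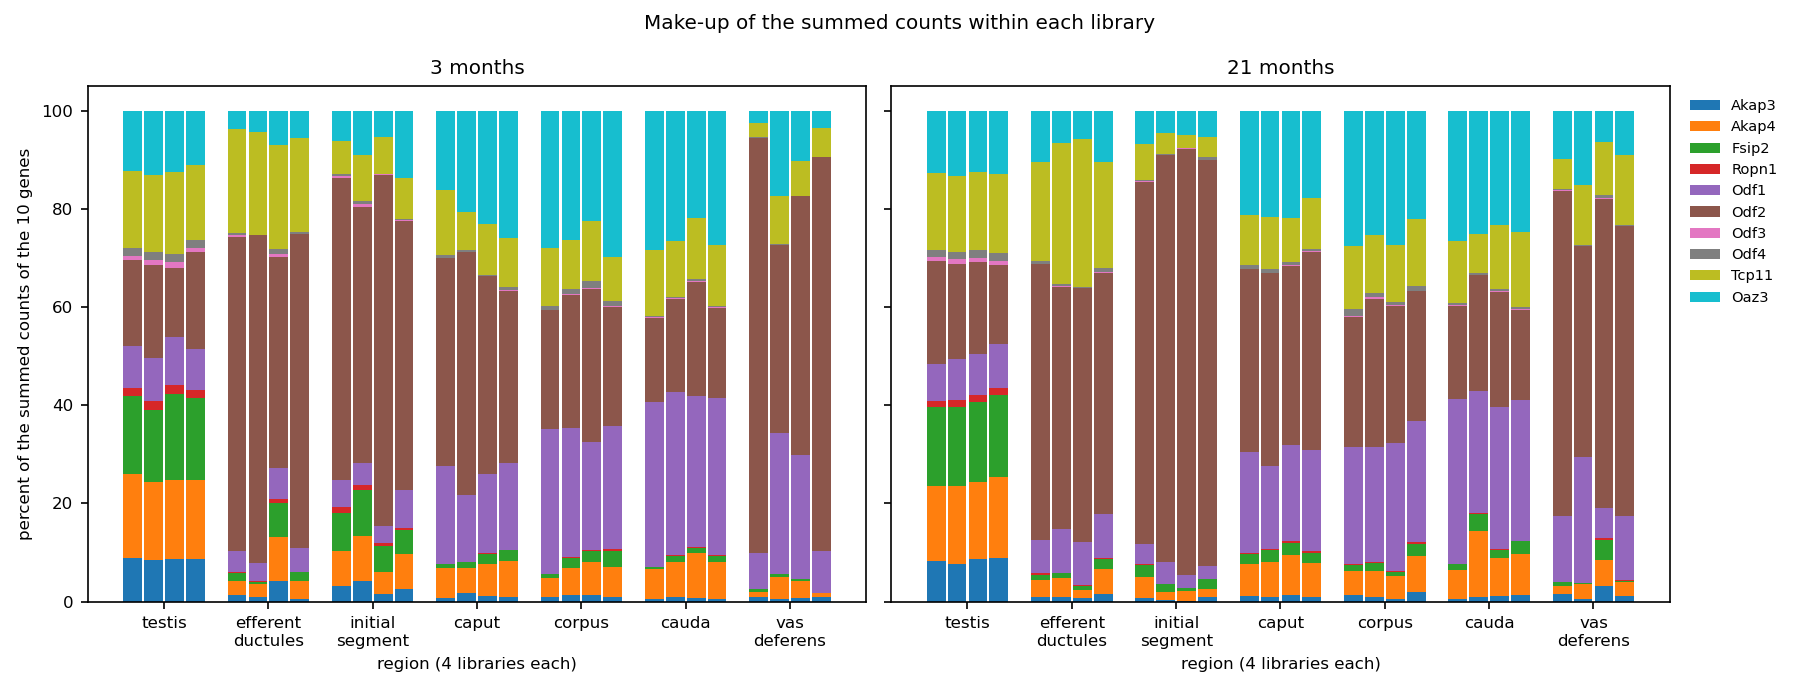
Share of each gene in the summed counts of the 10 genes, in every library (percent, stacked bars), with 4 libraries per region and age. The mean of Odf1 goes from 8.87% in the testis to 32.3% in the cauda at 3 months, and the mean of Odf2 is above 50% in the efferent ductules, initial segment and vas deferens at both ages, although single libraries go down to 38.3% (vas deferens 3 months replicate 2).

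In the testis itself, 0.21% of all genes were lower at 21 months and 0.353% higher. Of the lists around the 10 genes, 1 of 11 other fibrous sheath genes fell, Ldhc (-0.20 on the log2 scale), 1 of 8 spermatid nucleus genes, Hils1 (-0.24), and of the flagellar membrane and midpiece genes Smcp rose (0.44). In the Leydig cell list Star (1.02) and Hsd3b6 (0.70) rose and 1 of 8 fell. No gene passed in the dense fibre paralog, acrosome, spermatocyte, spermatogonium, Sertoli cell, multiciliated cell, centriole appendage, antizyme or protein kinase A lists. The median of the 10 tail genes was 0.0074, and that of all genes tested -0.0063.

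Against the other regions, all 11 other fibrous sheath genes, all 10 flagellar membrane and midpiece genes, all 11 acrosome, all 8 spermatid nucleus and all 14 spermatocyte genes were also testis-specific at 3 months by the 4-fold rule, which 28.8% of all genes met, with medians from 6.54 to 8.04 on the log2 scale against 7.46 for the 10 tail genes and 0.23 for all genes. These medians are of fitted differences from the average log2 level of the other regions, not of the ratios of mean CPM given earlier. The 4-fold rule was also met by 8 of 10 dense fibre relatives, 9 of 10 Sertoli cell, 8 of 8 Leydig cell, 7 of 11 spermatogonium and 8 of 14 multiciliated cell genes. Of the lists that hold partners of the tail proteins or relatives used in other cells, it was met by 5 of 12 centriole appendage genes, 1 of 5 antizyme and ornithine decarboxylase genes and 0 of 6 protein kinase A subunit genes, the proteins that the anchoring proteins dock.

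Over the 48 duct libraries, the genes whose log2(CPM + 1) followed Akap4 most closely were Fhl4 (r = 0.981), Spz1 (r = 0.970) and Gapdhs (r = 0.968), of 17854 compared (Pearson, a description with no test, since libraries of a region share it). Gapdhs encodes the sperm glyceraldehyde-3-phosphate dehydrogenase bound to the fibrous sheath. Odf1 was followed by Tppp2 (r = 0.972), Smcp (r = 0.969) and 4930571K23Rik (r = 0.968), of which Smcp encodes a cysteine-rich protein of the mitochondrial capsule. Oaz3 was followed by Dbil5 (r = 0.986), 4930571K23Rik (r = 0.986) and Klhl10 (r = 0.978). Among the 10 genes themselves, r was highest between Odf1 and Oaz3 (0.966) and lowest between Odf1 and Ropn1 (0.464), over the same 48 libraries, many of which hold few reads of Ropn1.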

How the data were processed

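Total RNA of 7 regions from 4 mice per age was converted to stranded, ribosome-depleted libraries and sequenced in pairs by the authors. They deposited raw read counts per gene, with HISAT2, HTSeq, cutadapt and the build mm10 named in the submitters' processing notes. Versions, the annotation release and the strand setting of the counting are not given in the sources used here. Counts of genes that overlap on opposite strands may share reads.

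The counts were analysed as deposited, every count column was used, and libraries were grouped by the region and age of their labels. Genes that reached 10 counts summed over the libraries of a fit were tested with the quasi-likelihood F-test of edgeR (version 4.0.16, R 4.3.3) after TMM scaling, with Benjamini-Hochberg adjustment over all genes tested and a threshold of 0.05. Ages were compared region by region, regions within an age over 28 libraries, and age effects between regions over 56 libraries. Testis-specific genes also had to reach 4 times the mean of the other 6 regions. Shares within a library were compared by exact permutation tests (Python 3.11.15, numpy 2.4.6, pandas 2.3.3). The statistics were tested on simulated counts. The study used DESeq2 with an unadjusted p and a fold of 1.5, and both were run as alternatives (DESeq2 1.42.0), beside other scalings, filters, a replicate block and left-out libraries.

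Depth ran from 11125279 to 20561967 counts, and genes at a few reads are limited by counting error. The labels give replicate numbers but do not tie them to mice. Regions of one age came from the same 4 mice, so region comparisons without a block treat them as independent, and p-values measure the spread between these libraries. All 10 genes are named in every comparison. From the 14 gene lists (138 entries, Prm2 being in both the spermatid nucleus and region marker lists, all matched to symbols in GENCODE M21), at most the 2 genes with the largest called change per comparison are named, and Prm2 and Prm3 were named after their values were seen. For likeness, the 3 genes with the highest r among those with a mean of at least 1 CPM are named. The members and lists were chosen with earlier results of these data known.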

Additional observations from a re-analysis of the deposited data

Results flagged for a closer look

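In 18 of the 140 groups of 4 libraries, 1 library lay far from the other 3 by Dixon's test of a single far value, which chance gives in about 1 in 20 groups of continuous values. That rate does not hold where a group has 0 to a few reads, as for Odf3 and Ropn1 in several duct groups. 7 of the 18 were efferent ductules 3 months replicate 3, the highest of its group with 16.6 CPM of Akap3, 34.6 CPM of Akap4, 24.6 CPM of Odf1, 26.2 CPM of Fsip2, 81.9 CPM of Tcp11, 3.28 CPM of Ropn1 and 27.4 CPM of Oaz3.

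In the vas deferens at 3 months, replicate 3 was the highest for Akap3 (1.04 CPM), and replicate 2 alone held reads of Odf3 (0.0625 CPM) and Ropn1 (0.125 CPM). At 21 months, vas deferens replicate 3 was the highest for Fsip2 (5.12 CPM) and Ropn1 (0.394 CPM) and replicate 2 for Oaz3 (24.7 CPM). In the initial segment at 21 months, replicate 1 was the highest for Akap4 (3.93 CPM). In the corpus at 3 months, replicate 1 was the lowest for Akap4 (14.7 CPM). In the caput at 21 months, replicate 3 was the lowest for Odf2 (59.7 CPM), replicate 2 held no read of Odf3 (0 CPM) and replicate 4 was the highest for Ropn1 (0.597 CPM).

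The age effect differed between the initial segment and the mean of the other 5 duct regions for 5 genes, by -3.44 for Akap3, -2.28 for Akap4, -3.12 for Fsip2, -1.83 for Tcp11 and -4.07 for Ropn1 on the log2 scale (edgeR, interaction term over 56 libraries). None of the 5 passed without initial segment 3 months replicate 2, an alternative added after the data were seen.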

How the results depend on the processing

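The number of the 10 genes called higher or lower in each comparison was recomputed under every alternative. It stayed within 1.5 times in 627 alternatives and moved in 66. Of the results of single genes, called or not, 3163 kept their side of the threshold, 77 calls were lost, 69 were gained and 3 reversed. A gene called in neither fit was counted as kept, also where its direction changed.

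In the step from initial segment to caput at 3 months 1 gene fell, against 2 with library size only, with only these regions in the fit or with the replicate block, and 0 to 4 with libraries left out. From corpus to cauda at 3 months 1 gene rose, against 3 with library size only, 4 with only these regions and 0 to 3 with libraries left out, and 1 fell, against 0 to 1 with libraries left out. At 21 months 1 rose, against 2 with library size only and 0 to 1 with libraries left out, and 1 fell, against 0 by DESeq2, with library size only or with only these regions, and 0 to 1 with libraries left out. From caput to corpus at 3 months 4 rose, against 2 with library size only, 8 with only these regions and 2 to 8 with libraries left out. From efferent ductules to initial segment 0 rose, and 0 to 4 with libraries left out. There, with libraries left out, the difference of Akap3 ran from -0.96 to 1.62 on the log2 scale (1.31 without efferent ductules 3 months replicate 3) and that of Akap4 from -0.83 to 1.09, reversed at the upper end.

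For age in the caput 0 genes fell, against 1 by DESeq2, with no filter or with the replicate block and 0 to 2 with libraries left out, and 0 rose, against 1 by an unadjusted p and a 1.5-fold change and 0 to 1 with libraries left out. The same rule gave 1 higher in place of 0 in the efferent ductules, cauda and vas deferens, and 0 lower in place of 1 in the testis, as did 56 libraries in one fit. Without a filter 1 rose in place of 0 in the corpus. With libraries left out, 4 to 8 fell in the initial segment (7), 0 to 1 fell in the testis, 0 to 2 rose in the efferent ductules and 0 to 1 in the vas deferens. For age effects between regions, 5 were lower in the initial segment, against 0 to 7 with libraries left out. That number moved by more than 1.5 times in 4 of the 6 fits that left out libraries. In the caput 1 was lower in place of 0 with DESeq2 size factors or filterByExpr, and 0 to 1 were higher in the efferent ductules and in the vas deferens with libraries left out.

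With Odf2 left out of the sum, the shares above and below the testis were 1 and 5 in place of 2 and 8 in the efferent ductules at 3 months, 0 and 2 in place of 1 and 8 in the initial segment at 3 months, 3 and 5 in place of 1 and 9 there at 21 months, and 2 in place of 1 above in the vas deferens at both ages. Odf1, Tcp11 and Oaz3 turned from below to above in the initial segment at 21 months, and Odf4 in the corpus and Tcp11 in the caput at 3 months were no longer called. Shares with a replicate left out leave 3 libraries a group, where no exact test can pass, so they were not tested. DESeq2 gave no p for Akap3 and Fsip2 at 3 months and for Fsip2 at 21 months between regions.

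Whether a replicate number marks a shared mouse is not stated. In 1 of 42 pairs of regions every same-number correlation of deviations was above 0.1, with a mean of 0.0301 at 3 months and 0.00251 at 21 months, and in 0 of 7 pairs of ages. With the replicate block Tcp11 was called higher with age in the vas deferens (1 gene in place of 0), Odf2 lower with age in the caput and Fsip2 lower from initial segment to caput at 3 months, and no other call over the 10 genes moved a count by more than 1.5 times. By the TMM factors of all 56 libraries, scaling by library size alone shifts a comparison by -0.47 to 0.42 on the log2 scale. The shift is the same for every gene of a comparison. The causes of the changes under these alternatives were not tested. Genes at a few reads, above all Ropn1 and Odf3 in the ducts, are limited by depth.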
